A study of Mus musculus with 15 samples.

Results

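The genes described here are 35 mouse imprinted genes, taken by symbol from a list written from general knowledge and looked up among the 55228 genes that each library lists. All 35 were found. By the parental copy they are known to be expressed from, 20 are paternally expressed, 11 are maternally expressed, and 4 (Grb10, Ube3a, Gnas and H13) use a copy that depends on the tissue or on the transcript. RNA was sequenced from mouse embryonic stem cells (mESC) of the line 81K1, which is 1 clone derived from OG2 cells with an shRNA that targets Smarcb1, which encodes a core subunit of BAF chromatin remodelling complexes, placed at the Rosa26 locus and switched on by doxycycline. There were 5 groups of 3 libraries: untreated cells at 48 h and 240 h (48 h ctrl and 240 h ctrl) and cells given 1 µg doxycycline per ml each day for 48 h, 72 h or 240 h (48 h kd, 72 h kd and 240 h kd). All groups carry the shRNA cassette and were grown on gelatine with LIF and serum. The 72 h kd libraries have no control of their own time among these libraries and were compared with the 48 h ctrl libraries, so the 48 h and 72 h comparisons share their controls. Cells lacking the shRNA were not analysed here with doxycycline, so an effect of doxycycline and an effect of the knockdown cannot be told apart.

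An imprinted gene is transcribed mainly from the copy inherited from 1 parent, because DNA methylation laid down in the germ line marks an imprinting control region on only 1 of the parental chromosomes. In embryonic stem cells the mark is kept by ZFP57 with TRIM28, which bind methylated control regions, and by the maintenance methyltransferase DNMT1. Many imprinted genes lie in clusters that share a control region and hold a long noncoding RNA, and as a group they are known for control of embryonic growth, placental function and metabolism, paternally expressed genes such as Igf2 promoting growth and maternally expressed genes such as Cdkn1c restraining it. The deposited values count reads from both parental copies together, so they give the total level of a gene and not which copy was used.

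The starts of a few genes are printed here, chosen as a start region that a pair of genes shares, as the starts of noncoding RNAs of 3 clusters, or for a large change. RefSeq promoter sequences of GRCm38.p6 were at hand for 28 of the 35 genes, trimmed to 250 bases before and 30 after the start site and written 5′ to 3′ on the strand of the gene. Capitals mark the hexamer TGCCGC on either strand, the core of the ZFP57 motif, and the palindrome TGACGTCA, the cyclic AMP response element. Peg3 and Usp29 start head to head, 164 bases apart, and the 223 bases that both windows hold (chr7:6730390-6730612, minus strand, the strand of Peg3) are given once. Meg3 (chr12:109540746-109541025, plus strand) begins the maternally expressed RNAs of the Dlk1-Meg3 cluster. Kcnq1ot1 (chr7:143296518-143296797, minus strand) and Airn (chr17:12741061-12741340, plus strand) are the paternally expressed antisense RNAs of the Kcnq1 and Igf2r clusters. Peg12 (chr7:62464481-62464760, minus strand) was among the largest rises at 240 h, and Nnat (chr2:157559828-157560107, plus strand) was the largest fall at 72 h.
Peg3-Usp29: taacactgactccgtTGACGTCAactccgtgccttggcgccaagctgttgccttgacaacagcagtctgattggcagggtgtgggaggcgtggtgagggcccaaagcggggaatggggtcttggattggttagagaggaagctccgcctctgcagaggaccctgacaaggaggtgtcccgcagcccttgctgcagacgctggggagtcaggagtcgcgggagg
Meg3: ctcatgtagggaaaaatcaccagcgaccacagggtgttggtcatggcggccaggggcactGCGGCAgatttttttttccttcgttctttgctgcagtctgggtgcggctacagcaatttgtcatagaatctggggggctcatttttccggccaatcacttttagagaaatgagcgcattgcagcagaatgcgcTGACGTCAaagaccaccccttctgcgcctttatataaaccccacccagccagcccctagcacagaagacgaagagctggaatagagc
Kcnq1ot1: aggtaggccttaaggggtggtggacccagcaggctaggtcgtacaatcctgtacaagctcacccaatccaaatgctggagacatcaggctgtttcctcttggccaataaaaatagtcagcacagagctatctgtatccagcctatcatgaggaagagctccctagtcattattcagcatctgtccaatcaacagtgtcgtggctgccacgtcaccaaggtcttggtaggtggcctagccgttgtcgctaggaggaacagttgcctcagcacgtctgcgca
Airn: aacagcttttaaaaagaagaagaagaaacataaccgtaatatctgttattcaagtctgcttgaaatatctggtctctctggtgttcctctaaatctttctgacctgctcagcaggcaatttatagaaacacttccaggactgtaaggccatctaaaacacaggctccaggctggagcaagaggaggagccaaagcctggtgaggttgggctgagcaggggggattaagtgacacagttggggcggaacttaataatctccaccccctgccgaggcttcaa
Peg12: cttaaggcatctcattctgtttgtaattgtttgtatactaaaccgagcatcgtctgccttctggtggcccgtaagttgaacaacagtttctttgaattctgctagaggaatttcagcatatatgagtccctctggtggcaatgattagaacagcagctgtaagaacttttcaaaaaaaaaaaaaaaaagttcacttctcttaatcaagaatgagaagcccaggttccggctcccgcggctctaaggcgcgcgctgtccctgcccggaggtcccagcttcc
Nnat: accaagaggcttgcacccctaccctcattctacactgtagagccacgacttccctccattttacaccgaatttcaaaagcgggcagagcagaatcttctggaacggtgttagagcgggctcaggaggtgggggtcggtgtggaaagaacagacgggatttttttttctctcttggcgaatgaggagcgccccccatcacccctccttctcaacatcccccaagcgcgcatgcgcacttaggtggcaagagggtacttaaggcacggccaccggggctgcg

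The hexamer was found in the windows of 5 of the 28 genes (Zim1, Meg3, Grb10, Plagl1 and Mcts2), and in 10.4% of the 32851 promoter windows of the same length. The palindrome was found in 3 (Peg3, Usp29 and Meg3), the first 2 of them by the same 8 bases, against 1.74% of all windows. The median window of these genes held 11 CpG dinucleotides and the median of all windows held 6. These are matches of letters in a short window around 1 start site per gene. That start lay within 100 bases of the 5′ end of the listed span for 20 of the 28 genes. It was 1263 bases or more from it for Plagl1 (30328), Mest (9959), Mirg (5217), Ndn (1708) and Grb10 (1263), so these windows are not at the 5′ end of the listed gene.

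The values are reads scaled to a library of 1000000 reads (RPM), obtained from the deposited FPKM by multiplying by the gene span, over which the reads had been counted with introns included and without regard to strand. Library totals were 11074998 to 14515300 reads. A gene was called when limma gave a Benjamini-Hochberg adjusted p under 0.05 over all genes tested and an absolute log2 change above 0.58, and tested when the compared libraries had a mean of at least 10 reads. Smarcb1 was at 84.7, 86.0 and 97.8 RPM in the 48 h ctrl libraries and at 82.2, 88.3 and 84.5 RPM in 240 h ctrl, against 12.5, 20.4 and 15.3 RPM after 48 h of knockdown, 13.4, 15.9 and 12.7 after 72 h and 17.9, 15.4 and 15.9 after 240 h. Among the libraries, 48 h kd replicate 2 stood apart from its replicates (chi-square per degree of freedom 11.3 and 9.15, against 1.51 for the other pair), with 2.53% of its reads mitochondrial, and 240 h ctrl replicate 3 differed from replicate 1 by 8.89 on that scale. The summed level of 10 stem cell markers was 6096 to 6442 RPM in the 48 h controls, against 5900 to 6707 RPM after 48 h of knockdown and 7032 to 7232 RPM after 72 h. At 240 h it was 5657 to 6173 RPM without doxycycline against 5328 to 5420 with it, so that 72 h kd lay above and 240 h kd below the controls, without overlap. Of these markers Dppa5a rose at 72 h (1.04), and Esrrb (-0.80) and Zfp42 (-0.58) fell at 240 h. The summed level of 11 fibroblast or feeder cell markers was 30.4 to 35 RPM in 240 h kd and 10.6 to 14.6 RPM in the other groups, and that of 10 primitive endoderm markers 31.6 to 33.8 RPM in 240 h kd and 12 to 19.8 RPM in the others.

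At 48 h, 9 imprinted genes rose and 5 fell on knockdown, among them rises of Igf2, Meg3 and Mirg and falls of Plagl1, Nnat and H19. At 72 h, 7 rose and 10 fell, with the largest falls in Nnat, Cdkn1c and Grb10. At 240 h, 10 rose and 2 fell, with the largest rises in Peg12, Igf2 and Peg10. The 14 genes called at 48 h were of 33 tested, where 9.23% of all 16108 genes tested were called (4.32% higher and 4.9% lower). The 17 called at 72 h were of 33 tested, against 22.3% of 16146 genes (12.3% higher and 10% lower). The 12 called at 240 h were of 34 tested, against 17.7% of 16633 genes (9.76% higher and 7.95% lower). The share of imprinted genes called was thus 42.4%, 51.5% and 35.3%. Rtl1 was listed at 0 in every library and Ascl2 had too few reads for the 48 h and 72 h tests. Fewer cells expressing a gene and less RNA per cell cannot be told apart in such bulk samples.

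**Figure D1:**
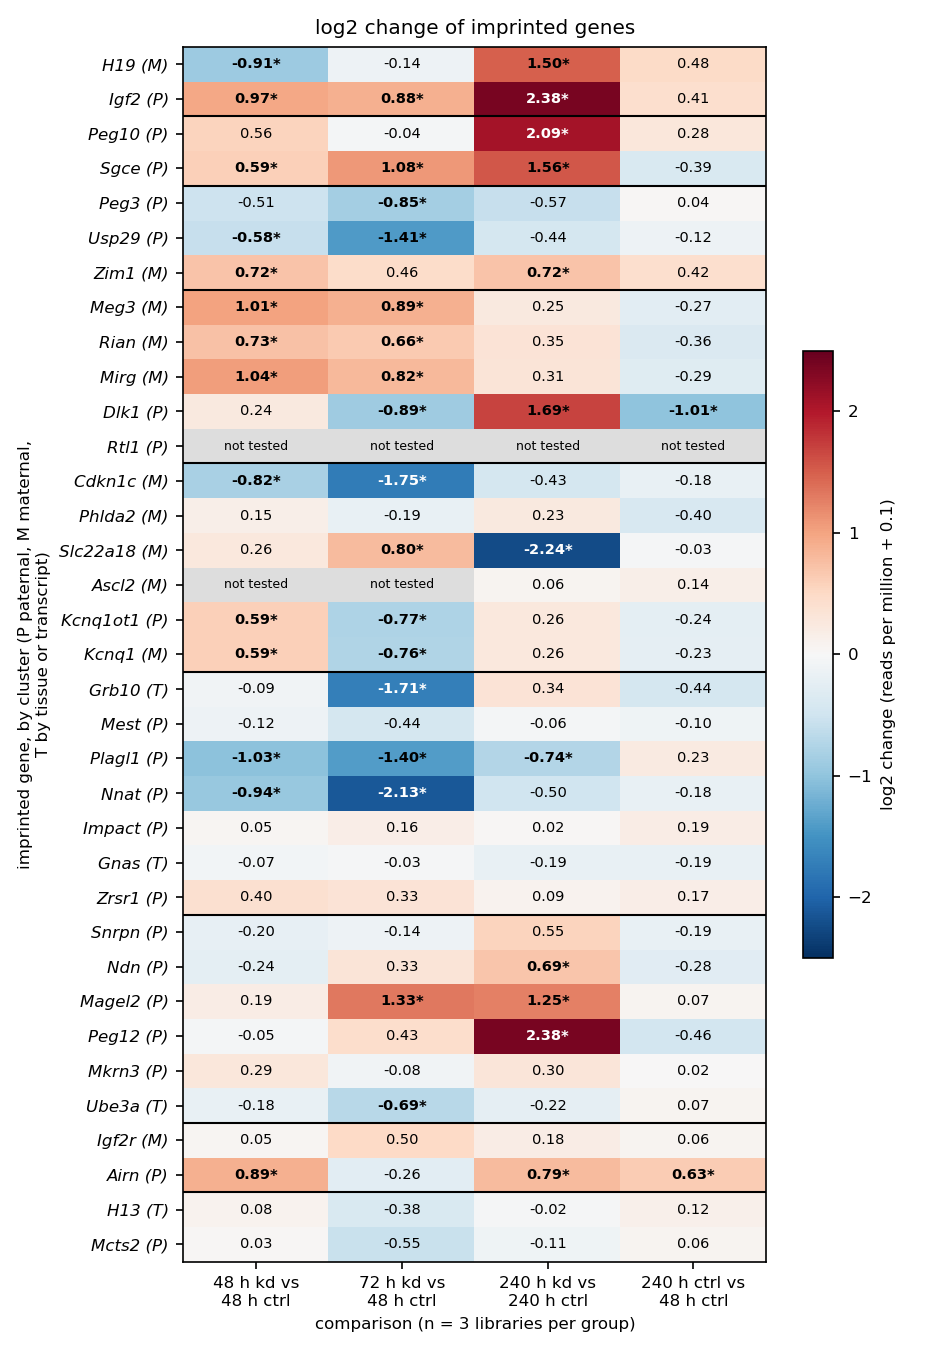
Fitted log2 change of each imprinted gene (rows, grouped by cluster between black lines) in 4 comparisons of 3 against 3 libraries (columns), with bold and an asterisk where the gene was called by limma. Only Igf2, Sgce and Plagl1 carry an asterisk in the same direction in all 3 knockdown columns, and the column of the untreated groups has 2 asterisks, for Dlk1 and Airn.

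The median absolute log2 change of the imprinted genes tested was 0.40 at 48 h, 0.66 at 72 h and 0.39 at 240 h, beside 0.17, 0.29 and 0.21 over all genes tested. Groups did not overlap for 24 of the 33 imprinted genes tested at 48 h (41.6% of all genes), for 29 of 33 at 72 h (65.2%) and for 20 of 34 at 240 h (53.1%). Over the 3 comparisons, 23 of the 34 genes tested were called at least once, against 32% of the 16949 genes tested. The calls had the same direction at all 3 times for 3 genes (Igf2 and Sgce higher, Plagl1 lower), against 3.71% of all genes, and opposite directions at different times for 5 (H19, Dlk1, Slc22a18, and Kcnq1ot1 with Kcnq1, which share their reads), against 1.01%. These 2 counts were 2 and 2 without 48 h ctrl replicate 2 and 2 and 3 without 48 h kd replicate 3, and the second was 3 without 48 h kd replicate 2. With 240 h ctrl as the controls of 72 h kd they were 2 and 3. Of the 5, H19 kept opposite calls with any 1 library left out, while Dlk1, Kcnq1ot1 and Kcnq1 each lost a call without some libraries, as did Slc22a18, which also had too few reads for the 240 h test without any 1 of the 240 h ctrl libraries. Without 48 h kd replicate 2, 11 genes were called at 48 h (6 higher and 5 lower, against 9.02% of all genes). Without 48 h ctrl replicate 2 or 48 h kd replicate 3, 9 were called (5 higher and 4 lower each time, against 7.53% and 8.1%). Without 240 h ctrl replicate 3, 12 were called at 240 h. With 240 h ctrl in place of 48 h ctrl as the controls of 72 h kd, 18 genes were called at 72 h (8 higher and 10 lower, against 25.9% of all genes). The calls of Igf2, Kcnq1ot1, Kcnq1 and Dlk1 were then lost, and Peg12 (0.89) and Ndn (0.61) were called higher and Airn (-0.89), H19 (-0.62) and Mcts2 (-0.61) lower.

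Igf2 and H19 lie next to each other on chromosome 7 and share enhancers and a control region that CTCF binds on the maternal copy. Igf2, the paternally expressed fetal growth factor, was at 3.72, 4.69 and 3.09 RPM in 48 h ctrl, at 7.99, 6.57 and 8.04 in 48 h kd, at 6.72, 6.15 and 8.44 in 72 h kd, at 5.22, 4.47 and 5.55 in 240 h ctrl and at 29.1, 24.5 and 26.9 in 240 h kd. Every kd library was above every library of its control group. The log2 change was 0.97 ± 0.18 (SE) at 48 h, with an adjusted p of 0.00145, 0.88 ± 0.17 at 72 h, with one of 8.54e-05, and 2.38 ± 0.11 at 240 h, with one of 1.63e-11. Set against 240 h ctrl in place of 48 h ctrl, the 72 h change was 0.47 and not called. Nearly all reads of Igf2 also count for Gm49394, a listed gene that covers its span.

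H19, the maternally expressed noncoding RNA that restrains growth, did not follow Igf2 at 48 h. It was at 11.5, 12.8 and 10.2 RPM in 48 h ctrl and at 6.68, 4.52 and 7.40 in 48 h kd, lower in every kd library, with a log2 change of -0.91 (SE 0.17, adjusted p = 0.00207). In 72 h kd it was at 9.77, 9.55 and 12.2 RPM, overlapping the 48 h controls and below those of 240 h. In 240 h ctrl it was at 14.2, 17.2 and 17.0 RPM and in 240 h kd at 40.0, 43.7 and 54.0, a log2 change of 1.5 (SE 0.10, adjusted p = 2.4e-09). The knockdown change of H19 differed between 240 h and 48 h by 2.40 on the log2 scale. Both genes of the cluster were thus higher at 240 h, whereas at 48 h Igf2 rose and H19 fell.

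**Figure D2:**
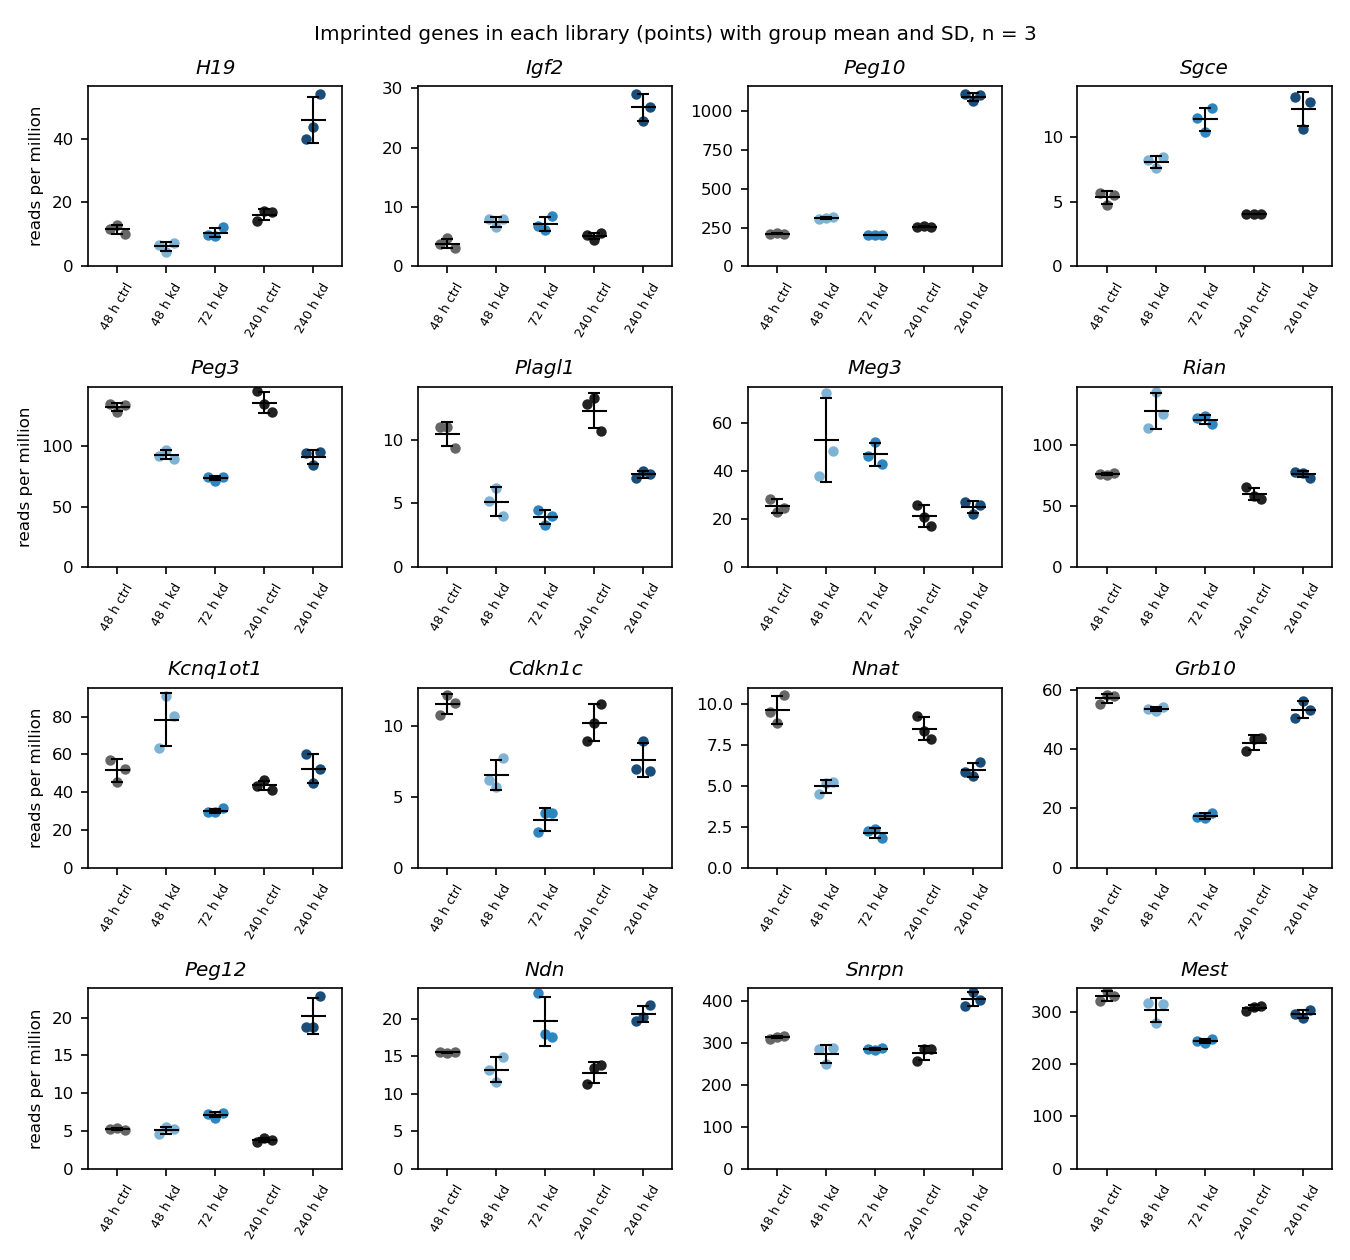
Levels (RPM) of 16 imprinted genes in each of the 15 libraries (points), with group mean and SD (bars, n = 3), each panel on its own axis from 0. Peg10, Igf2, H19 and Peg12 in 240 h kd stand above all other libraries, Grb10, Cdkn1c and Nnat are lowest in 72 h kd, and 1 of the 48 h kd points of Meg3 lies well above the other 2.

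Peg10 and Sgce are paternally expressed neighbours on chromosome 6 that are transcribed in opposite directions. Peg10, a gene derived from a retrotransposon and needed for the placenta, was between 204 and 214 RPM in 48 h ctrl and 72 h kd, at 304, 312 and 316 RPM in 48 h kd and at 256, 261 and 253 RPM in 240 h ctrl. In 240 h kd it was at 1108, 1063 and 1104 RPM, a mean of 4.26 times the 240 h controls (log2 change 2.09, SE 0.04, adjusted p = 1.29e-16). Its change at 48 h was 0.56 (SE 0.05, adjusted p = 3.29e-06), under the size needed for a call, and at 72 h it was -0.04.

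Sgce, which encodes epsilon-sarcoglycan, was at 5.69, 4.78 and 5.56 RPM in 48 h ctrl, at 8.25, 7.59 and 8.49 in 48 h kd and at 11.5, 10.4 and 12.3 in 72 h kd. In 240 h ctrl it was at 4.02, 4.06 and 4.06 RPM and in 240 h kd at 13.1, 10.7 and 12.8. No kd library reached down to its controls, and the log2 changes were 0.59, 1.08 and 1.56 at 48 h, 72 h and 240 h (SE 0.14, 0.13 and 0.13). At 48 h the call was lost without 48 h ctrl replicate 2 (0.52) or 48 h kd replicate 3 (0.56). At 72 h Sgce was thus called and Peg10 was not.

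In the Peg3 cluster of chromosome 7 the pair that shares a start region fell at 72 h. Peg3, a zinc finger protein that influences growth and maternal behaviour, was at 135, 128 and 134 RPM in 48 h ctrl, at 92.4, 96.9 and 89.7 in 48 h kd and at 74.7, 71.5 and 74.9 in 72 h kd. At 240 h it was at 146, 135 and 128 RPM in ctrl and at 94.8, 84.8 and 95.0 in kd. The kd libraries were lower than their controls at each time, but the change passed the size threshold only at 72 h (-0.85, SE 0.04, adjusted p = 3.62e-14), with -0.51 at 48 h and -0.57 at 240 h (-0.62, -0.60 and -0.60, and called, without 240 h ctrl replicate 3, 240 h kd replicate 1 or 240 h kd replicate 3). Usp29, a member of the ubiquitin-specific proteases that starts across the shared 223 bases, fell at 72 h from 5.91, 5.86 and 4.33 RPM to 2.5, 1.54 and 1.88 (-1.41, SE 0.20, adjusted p = 2.03e-06). At 48 h its change was -0.58 with an adjusted p of 0.0491, a call lost without 48 h ctrl replicate 1 or 2 or without 48 h kd replicate 3, and at 240 h it was -0.44 and not called. Usp29 (mean 48.3 reads) shares 11535 bases with Zim3 on the other strand (mean 17.1 reads), so part of its reads may be those of Zim3. Zim1, a maternally expressed zinc finger gene of the cluster, went the other way at low levels, from 2.62, 2.08 and 2.03 to 2.60, 4.6 and 4.33 RPM at 48 h and from 4.26, 2.92 and 2.19 to 6.75, 4 and 4.70 RPM at 240 h. These groups overlapped at both times. Its calls (0.72 at each time, adjusted p = 0.0408 and 0.0171) were lost without 48 h ctrl replicate 2 or 3, 48 h kd replicate 2 or 3, 240 h ctrl replicate 3 or 240 h kd replicate 1. The 48 h call was also lost by voom and with the replicate number as a block, and both calls were lost without the trend of limma.

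The maternally expressed RNAs of the Dlk1-Meg3 cluster on chromosome 12 rose together early in the knockdown. Meg3 was at 28.4, 22.8 and 24.7 RPM in 48 h ctrl, at 38.1, 72.3 and 48.3 in 48 h kd and at 46.1, 52.1 and 42.8 in 72 h kd. Rian, which hosts small nucleolar RNAs and microRNAs, was at 76.2, 75.4 and 76.8 RPM in 48 h ctrl, at 114, 143 and 125 in 48 h kd and at 122, 123 and 116 in 72 h kd. Mirg, the microRNA host at the end of the cluster, was at 21.0, 17.9 and 16.2 RPM in 48 h ctrl, at 27.9, 54.4 and 35.4 in 48 h kd and at 33.4, 35 and 28.9 in 72 h kd. All 3 were higher in every 48 h kd and 72 h kd library than in any 48 h ctrl library. The log2 changes at 48 h were 1.01 for Meg3 (SE 0.17, adjusted p = 0.000921), 0.73 for Rian and 1.04 for Mirg. The highest 48 h kd value of each came from replicate 2. Without that library the changes were 0.76, 0.64 and 0.78, all still called. At 72 h the changes were 0.89, 0.66 and 0.82. At 240 h none of the 3 was called, with changes of 0.25, 0.35 and 0.31. Meg3 was then at 25.0 ± 2.5 RPM in kd and 21.2 ± 4.49 in ctrl (SD, n = 3), and the groups overlapped for Meg3 and Mirg but not for Rian. Against 72 h kd the 240 h kd libraries were lower by -0.91, -0.67 and -0.80.

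Dlk1, a transmembrane protein related to Notch ligands and the paternally expressed gene of the cluster, had few reads, 5 to 49 per library. It was at 1.39, 1.98 and 1.32 RPM in 48 h ctrl, 1.82, 1.71 and 1.99 in 48 h kd and 0.391, 1.21 and 0.979 in 72 h kd. At 240 h the libraries without doxycycline had 0.804, 0.649 and 0.703 RPM, against 2.12, 3.38 and 2.28 with it. The kd libraries were above their controls at 240 h (1.69, SE 0.27, adjusted p = 5.7e-05), where Meg3, Rian and Mirg were not called. The 240 h ctrl libraries had 10, 8 and 9 reads of Dlk1 and the 240 h kd libraries 28, 49 and 31. It thus reached the minimum mean of 10 reads through the group where it is high. At 72 h Dlk1 was called lower (-0.89, adjusted p = 0.0256), but the call was lost without 48 h ctrl replicate 2 or 72 h kd replicate 1, and against 240 h ctrl the change was 0.12. Rtl1, the retrotransposon-derived gene on the paternal copy, had 0 reads in all 15 libraries, which allows at most 0.207 to 0.271 RPM (3 reads), counting error only.

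**Figure D3:**
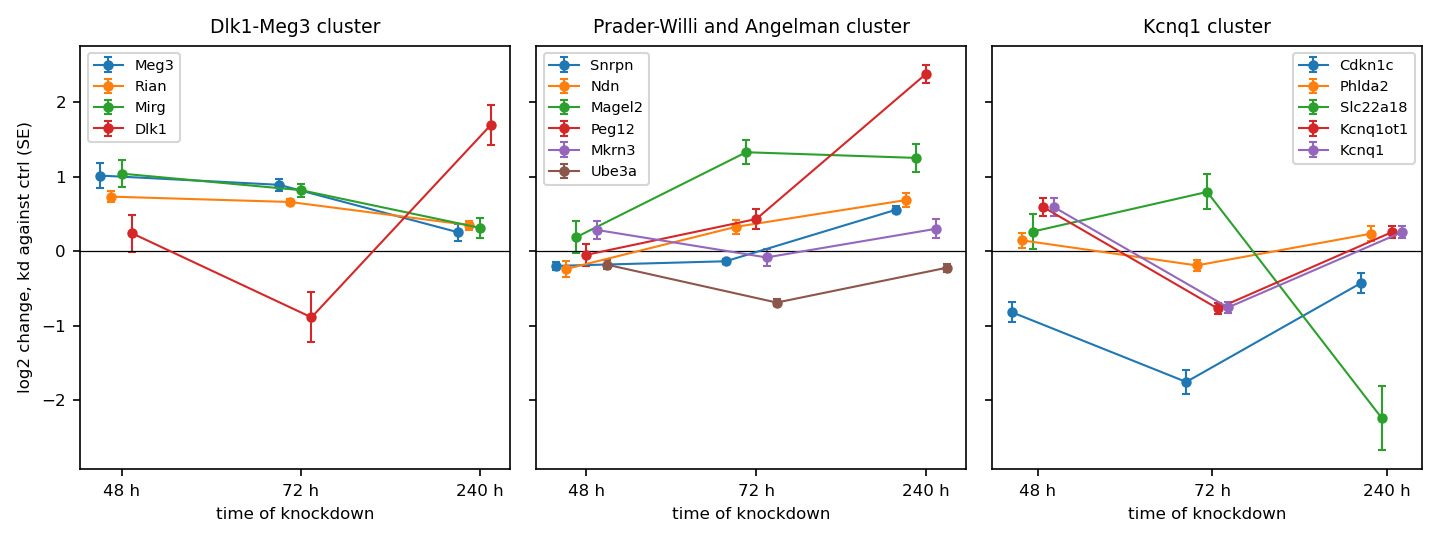
Fitted log2 change of kd against ctrl (points, bars are the SE of the limma fit on 3 against 3 libraries) at 48 h, 72 h and 240 h for genes of 3 imprinted clusters, with the times spaced evenly and points shifted sideways for legibility. Meg3, Rian and Mirg start at 1.01, 0.73 and 1.04 and end at 0.25, 0.35 and 0.31, while Dlk1 and Peg12 end at 1.69 and 2.38 and Slc22a18 at -2.24.

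In the Kcnq1 cluster on chromosome 7, Kcnq1ot1, the paternally expressed antisense RNA that silences its neighbours in cis, rose at 48 h and fell at 72 h. It was at 57.1, 45.4 and 52.1 RPM in 48 h ctrl, at 63.4, 91.1 and 80.3 in 48 h kd and at 29.3, 29.6 and 31.4 in 72 h kd. The 3 groups did not overlap. The changes were 0.59 ± 0.12 (SE) at 48 h, adjusted p = 0.00227, and -0.77 ± 0.07 at 72 h, adjusted p = 1.22e-09, and 0.26 at 240 h was not called. Without 48 h kd replicate 2 the 48 h change was 0.47 (adjusted p = 9.48e-05) and under the size threshold, as it was without 48 h ctrl replicate 2 (0.50) or 48 h kd replicate 3 (0.57). Against 240 h ctrl the 72 h change was -0.53.

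Among the maternally expressed genes of this cluster, Cdkn1c, an inhibitor of cyclin-dependent kinases, fell at 48 h and was lower still at 72 h. It was at 10.8, 12.2 and 11.7 RPM in 48 h ctrl, at 6.16, 5.71 and 7.76 in 48 h kd and at 2.5, 3.89 and 3.84 in 72 h kd, with no overlap between the 3 groups. Its change was -0.82 ± 0.14 (SE) at 48 h, adjusted p = 0.000829, then -1.75 ± 0.16 at 72 h, adjusted p = 1.01e-09, and -0.43 at 240 h, not called. Between 39.2% and 56.4% of its reads fall in Gm44732, a listed gene on the other strand within its span, and the reads outside Gm44732 were 6.25 ± 0.309 RPM in 48 h ctrl, 3.36 ± 0.776 in 48 h kd and 1.98 ± 0.563 in 72 h kd (SD, n = 3). Phlda2, which restrains placental growth, was between 16.5 and 31.4 RPM in all libraries and was called at no time. Slc22a18, a membrane transporter, had 18, 17 and 15 reads in 48 h ctrl and 26, 30 and 41 reads in 72 h kd, a rise of 0.80 (adjusted p = 0.00538) that was lost without 72 h kd replicate 3. In 240 h kd it had 6, 3 and 1 reads against 22, 17 and 13 in 240 h ctrl. The change was -2.24 (SE 0.43, adjusted p = 0.000415), and -0.94 with a pseudocount of 1. Slc22a18 thus reached the minimum mean of reads at 240 h through the controls, where it is high. Its call as a fall rests in part on that filter. Ascl2, a transcription factor of the trophoblast, had 0 to 17 reads per library and at 240 h a change of 0.06.

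Kcnq1, a potassium channel gene, could not be followed on its own. Kcnq1ot1 lies within its span, and 98.4% to 99.8% of the reads listed for Kcnq1 were those of Kcnq1ot1. Only 2 to 11 reads per library lay in the rest of the 320681 bases of Kcnq1. The calls of Kcnq1 (0.59 at 48 h, -0.76 at 72 h) thus repeat those of Kcnq1ot1. In all, 17 of the 35 genes overlap another listed gene that has at least 10% of their reads, so their values are uncertain to that extent.

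**Figure D4:**
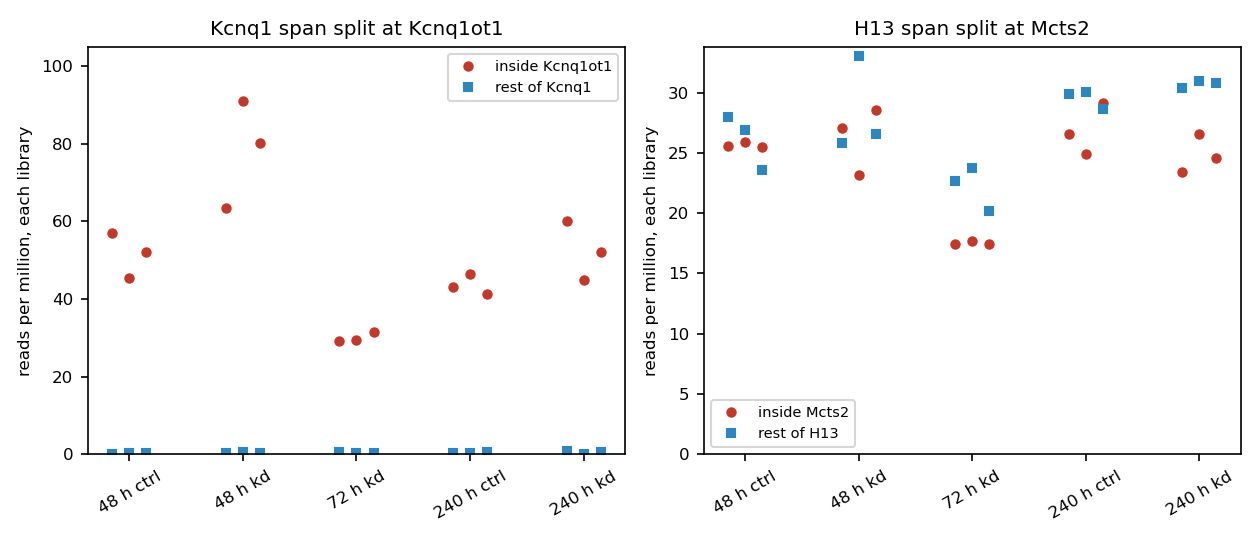
Levels (RPM) inside Kcnq1ot1 and in the rest of the Kcnq1 span (left), and inside Mcts2 and in the rest of the H13 span (right), for each of the 15 libraries. The rest of Kcnq1 stays below 1 RPM in every library, while the 2 portions of H13 are of similar size in every group.

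H13, a signal peptide peptidase, holds in its span the paternally expressed retrogene Mcts2, which had 41.3% to 52.0% of its reads. At 72 h Mcts2 was at 17.4, 17.6 and 17.4 RPM against 25.6, 25.9 and 25.5 in 48 h ctrl (-0.55, adjusted p = 6.15e-07), and the rest of H13 was at 22.2 ± 1.81 against 26.1 ± 2.29 RPM (SD, n = 3). Neither gene was called at any time against these controls, and Mcts2 was called lower at 72 h against 240 h ctrl (-0.61), after centring on the median (-0.62) and after quantile normalization (-0.61). Nnat, a paternally expressed small membrane protein known from the developing brain, lies within Blcap on chromosome 2. It was at 9.55, 8.84 and 10.6 RPM in 48 h ctrl, at 4.51, 5.20 and 5.24 in 48 h kd and at 2.27, 2.35 and 1.81 in 72 h kd, 3 groups without overlap. The log2 changes were -0.94 ± 0.14 (SE) at 48 h, adjusted p = 0.000285, and -2.13 ± 0.16 at 72 h, adjusted p = 5.5e-11. At 240 h Nnat was at 9.32, 8.36 and 7.89 RPM in ctrl and 5.84, 5.65 and 6.46 in kd, lower in each kd library but with a change of -0.50 not called. The part of Blcap outside Nnat stayed between 21.1 and 29.0 RPM in all 15 libraries.

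In the Prader-Willi and Angelman cluster on chromosome 7, the paternally expressed genes Peg12, Magel2 and Ndn rose at 240 h, and Mkrn3, which lies between Magel2 and Peg12, was not called. Peg12, a gene of the Frat family of Wnt signalling proteins, was at 3.54, 4.06 and 3.75 RPM in 240 h ctrl and at 18.8, 18.8 and 22.9 in 240 h kd, a mean 5.33 times higher (2.38, SE 0.12, adjusted p = 5.57e-11). At 48 h it was between 4.51 and 5.46 RPM with or without knockdown, and at 72 h at 7.27, 6.72 and 7.31 RPM, above the 48 h controls but not called (0.43, and 0.89 and called against 240 h ctrl). Magel2, of the MAGE family, rose earlier, from 2.55, 2.89 and 2.65 RPM in 48 h ctrl to 7.58, 6.96 and 6.25 in 72 h kd (1.33, adjusted p = 1.39e-07), and at 240 h from 2.49, 3.73 and 2.42 to 8.57, 5.86 and 6.46 RPM (1.25, adjusted p = 4.67e-05). Ndn, of the same family, was at 11.2, 13.4 and 13.9 RPM in 240 h ctrl, against 19.8, 20.3 and 21.9 in 240 h kd (0.69, adjusted p = 1.72e-05), with no overlap.

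Of the other genes of that cluster, Ube3a fell at 72 h, and Snrpn and Mkrn3 were called at no time. Snrpn, a protein of the splicing machinery, was at 257, 286 and 287 RPM in 240 h ctrl, against 390, 423 and 404 in 240 h kd, without overlap, and its change of 0.55 (SE 0.05, adjusted p = 5.82e-08) was under the size needed for a call, which it passed without 240 h ctrl replicate 3 or 240 h kd replicate 1 (0.58 each time). Snurf, within its span, had 20.0% to 24.3% of its reads. Mkrn3, a ring finger protein, was between 7.40 and 11.8 RPM throughout. Ube3a, a ubiquitin ligase expressed from the maternal copy in neurons, was at 191, 179 and 177 RPM in 48 h ctrl, against 115, 109 and 116 in 72 h kd, a fall of -0.69 (SE 0.04, adjusted p = 1.07e-12). At 240 h it was lower in every kd library, by -0.22, and not called. Its span overlaps Snhg14, transcribed from the other strand, which was at 138 ± 9.19 RPM in 72 h kd and 188 ± 18.2 in 48 h ctrl (SD, n = 3).

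In the Igf2r cluster on chromosome 17, Airn, the paternally expressed RNA antisense to Igf2r, rose at 48 h and 240 h. It was at 4.67, 3.61 and 3.80 RPM in 48 h ctrl, against 6.68, 9.72 and 6.50 in 48 h kd (0.89, SE 0.18, adjusted p = 0.00321), and at 6.51, 6.25 and 5.94 in 240 h ctrl, against 12.7, 10.2 and 9.84 in 240 h kd (0.79, SE 0.13, adjusted p = 6.88e-05). In 72 h kd it was at 3.20, 3.97 and 2.86 RPM, within the range of its 48 h controls or below (a change of -0.89 and called against 240 h ctrl). The 48 h change without 48 h kd replicate 2 was 0.71. Airn shares 28354 bases with Igf2r, which had a mean of 1862 reads against 81.4 for Airn. Since strand was not used, the share of Airn reads that came from Igf2r cannot be told. Igf2r, the maternally expressed receptor that removes Igf2, was between 126 and 187 RPM in all libraries. It was higher in each 72 h kd library than in 48 h ctrl (186, 180 and 187 against 140, 126 and 126 RPM), with a change of 0.50 that was not called.

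Of the genes with a locus of their own, Plagl1, a zinc finger transcription factor that is paternally expressed, fell at each time. It was at 11, 11 and 9.36 RPM in 48 h ctrl, 5.21, 6.22 and 3.97 in 48 h kd and 4.45, 3.32 and 3.99 in 72 h kd. The 240 h ctrl libraries had 12.8, 13.3 and 10.7 RPM, against 6.98, 7.51 and 7.34 in 240 h kd. No kd library reached its controls, and the changes were -1.03, -1.40 and -0.74 (SE 0.17, 0.14 and 0.12). Grb10, an adaptor that dampens insulin and IGF signalling, fell at 72 h alone among the 3 comparisons, to 16.9, 16.7 and 18.4 RPM from 55.3, 58.1 and 57.8 in 48 h ctrl (-1.71, SE 0.06, adjusted p = 1.23e-16). It was at 53.4, 53.0 and 54.1 RPM in 48 h kd and at 50.3, 56.2 and 53.2 in 240 h kd, against 39.2, 43.4 and 43.8 in 240 h ctrl. Mest, Impact, Gnas and Zrsr1 were not called at any time. Mest, an alpha/beta hydrolase, was between 240 and 340 RPM, Impact, a regulator of translation, between 207 and 257, Gnas, the stimulatory G protein subunit, between 205 and 291, and Zrsr1, a splicing factor relative, between 31.9 and 47.8. Zrsr1 lies within Commd1, and Gm20721, within Gnas, had 87.8% to 92.5% of the reads of Gnas.

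Per kb of exons in the GENCODE M21 annotation, the highest levels in 48 h ctrl among 34 genes (Rian had no matched exon length) were those of Snrpn (145.8 RPM per kb), Mest (83.8), Impact (40.9) and Peg10 (31.6), and the lowest above 0 were those of Dlk1 and Zim1 (both 0.277) and Usp29 (0.297). Reads in introns are included in these levels.

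By parental copy, 4 paternally expressed genes rose and 3 fell at 48 h of 19 tested, 3 rose and 6 fell at 72 h, and 8 rose and 1 fell (Plagl1) at 240 h. Of the maternally expressed genes, 5 rose and 2 fell at 48 h of 10 tested, 4 rose and 2 fell at 72 h, and 2 rose and 1 fell at 240 h of 11 tested. These rises were Meg3, Rian, Mirg, Zim1 and Kcnq1 at 48 h and Meg3, Rian, Mirg and Slc22a18 at 72 h. Meg3, Rian and Mirg lie in the same cluster, so these counts rest largely on that cluster. Of all genes, 4.32% rose and 4.9% fell at 48 h, 12.3% and 10% at 72 h and 9.76% and 7.95% at 240 h. Without 48 h ctrl replicate 2 or 48 h kd replicate 3 the rises at 48 h were 2 paternally and 3 maternally expressed genes, and without 48 h kd replicate 2 they were 3 and 3. At 240 h 1 maternally expressed gene rose without 240 h ctrl replicate 3 or 240 h kd replicate 1, and 2 paternally expressed genes fell without either of these or 240 h kd replicate 3. With all libraries, the maternally expressed rises at 48 h and falls at 72 h include Kcnq1, whose reads are those of a paternally expressed RNA. It is also part of the medians of the maternally expressed genes given next. The median log2 change was 0.05, -0.14 and 0.30 for the paternally expressed genes and 0.43, 0.48 and 0.25 for the maternally expressed genes at 48 h, 72 h and 240 h, beside 0.01, 0.02 and 0.01 over all genes tested. Of the 4 with a copy that depends on tissue or transcript, limma called 0 at 48 h and 240 h (1 and 3 at an unadjusted p under 0.05, and 0 by voom at either time), and Grb10 and Ube3a fell at 72 h. The difference between the parental classes was not tested.

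Between the untreated groups, 240 h ctrl and 48 h ctrl, 2 of 34 imprinted genes tested were called (1.36% of 16215 genes, 0.857% higher and 0.506% lower), Airn higher by 0.63 (adjusted p = 0.0136) and Dlk1 lower by -1.01 (adjusted p = 0.0311). Both calls were lost without 48 h ctrl replicate 2 or 3 or without 240 h ctrl replicate 2. The share of all genes called was 0.768% and 0.584% without 48 h ctrl replicate 2 or 3, and was 0.931% without 240 h ctrl replicate 2. From 48 h kd to 72 h kd, 2 rose (H19 and Magel2) and 9 fell of 33 tested, against 12.9% of 16104 genes called (6.91% higher and 5.97% lower). Among the falls were Grb10 (-1.62), Kcnq1ot1 (-1.36), Nnat (-1.19), Airn (-1.16), Cdkn1c (-0.94) and Peg10 (-0.60). The call of H19 (0.77) was lost without 48 h kd replicate 2 (0.56), that of Dlk1 (-1.13) without 48 h kd replicate 3 or 72 h kd replicate 1, and that of Usp29 (-0.83) without 72 h kd replicate 2. From 72 h kd to 240 h kd, 15 rose and 4 fell (Meg3, Rian, Mirg and Slc22a18) of 34 tested, against 25.1% of 16562 genes (12.3% higher and 12.8% lower). Genes that had fallen by 72 h were among the rises, Grb10 by 1.61, Nnat by 1.45, Cdkn1c by 1.15 and Kcnq1ot1 by 0.79. Duration of knockdown and time in culture cannot be told apart in these steps.

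Whether the effect of the knockdown differed between 240 h and 48 h was tested by an interaction term over 12 libraries. Of 34 imprinted genes tested, 11 were called, 9 with a more positive effect at 240 h and 2 with a more negative one, against 10.5% of 16403 genes (5.47% higher and 5.06% lower). The differences of the 2 effects were 2.43 for Peg12 (SE 0.18, adjusted p = 2.54e-08), 2.40 for H19, 1.53 for Peg10, 1.45 for Dlk1, 1.41 for Igf2 and -2.5 for Slc22a18. The last rests on 6, 3 and 1 reads in 240 h kd, where the size of the change depends on the pseudocount. Slc22a18 reached the minimum of reads for this test through the other groups. Marker genes of other cell types were also called. At 48 h Col1a1 rose and Thy1 fell of 5 fibroblast or feeder markers tested, Sox7 fell of 7 primitive endoderm markers, and both trophoblast markers tested, Tfap2c and Eomes, fell, against 9.23% of all genes called. At 72 h Col1a1, Pdgfrb, Cubn and Tfap2c rose and Thy1 and Sox7 fell, of 5, 7 and 2 tested in these lists, against 22.3%. At 240 h 17.7% of all genes were called (9.76% higher). Of the 11 fibroblast or feeder markers 7 were tested then and 5 rose (Col1a1 by 1.79, Acta2 by 3.27), with Fap at 0 reads. Between the untreated groups 5 of them were tested, and the others reached the minimum of reads with the 240 h kd libraries. The count of rises thus rests in part on that filter. Of the 10 primitive endoderm markers 7 were tested, 5 rose and 1 fell, with Ttr at 0. Of the 10 trophoblast markers, which include Ascl2, 6 were tested, 4 rose (Hand1 by 2.97, Cdx2 by 2.05) and 1 fell, with Prl3d1 and Tpbpa at 0. Only 3 were tested between the untreated groups, so here too the count of rises rests in part on the filter. The summed level of the 10 trophoblast markers was 113 to 117 RPM in 240 h kd against 70.8 to 76.5 RPM in its controls, and the early controls had 83.0 to 89.9 RPM, with 53.1 to 58.0 after 48 h of knockdown and 152 to 158 after 72 h. At 48 h and 72 h only Tfap2c and Eomes had enough reads to be tested, so the early sums rest mostly on these 2. Eomes was not called at 72 h. The part of these markers of other cell types in the changes of the imprinted genes was not tested.

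Of the factors that set or keep imprints, 22 of the 24 listed were tested. At 48 h limma called 0 of them, with 8 at an unadjusted p under 0.05 and 0 called by voom. At 72 h 3 fell, the de novo methyltransferase Dnmt3b (-0.81), the methylcytosine dioxygenase Tet2 (-0.59) and the polycomb subunit Eed (-0.76). At 240 h 4 rose, namely the de novo methyltransferase Dnmt3a (1.51), Dnmt3b (0.90), their cofactor Dnmt3l (1.14) and Dppa3, which protects maternal methylation in the early embryo (0.71), and 2 fell, Tet2 (-0.86) and Zfp42 (-0.58). The share called was 13.6% at 72 h, below the 22.3% of all genes, and 27.3% at 240 h, beside 17.7%. Dnmt3a was at 136, 140 and 147 RPM in 240 h ctrl and at 390, 404 and 406 in 240 h kd. Zfp57 was at 559, 561 and 518 RPM in 240 h ctrl, against 410, 374 and 379 in 240 h kd, without overlap, a change of -0.49 not called. Trim28 and Dnmt1 had log2 changes of 0.05 and -0.09 at 240 h and were not called at any time. By the interaction term, the effect at 240 h was more positive than at 48 h for Dnmt3l, Dnmt3a, Dnmt3b and Dppa3. It was more negative for Zfp57 and Tet2. These 6 are 27.3% of the 22 tested, against 10.5% of 16403 genes.

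Of 36 further imprinted genes that were listed under their symbols, 23 were tested at 48 h and 72 h and 25 at 240 h. Of these, 1 rose and 2 fell at 48 h, 2 rose and 3 fell at 72 h and 3 rose and 2 fell at 240 h. These are 13.04%, 21.7% and 20% of those tested, near the 9.23%, 22.3% and 17.7% of all genes. Sfmbt2, a paternally expressed polycomb-related gene of the placenta, rose at each time (0.87, 1.04 and 2.41), and Ddc, an enzyme of dopamine and serotonin synthesis, fell at each time (-0.83, -1.28 and -1.89). Casd1, which lies beside Sgce on chromosome 6, rose at 240 h by 0.65.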

How the data were processed

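RNA-seq of 15 libraries (5 groups, 3 each, groups and replicate numbers from the sample labels) was used. Per the authors' methods and processing notes, single-end reads were aligned to mm10 (GRCm38.p6) with STAR 2.7.0c and counted in R 4.0.3, and DESeq2 1.30.0 was used for their tests. The methods name a GENCODE release of GRCm38 for gene intervals joined to these data by gene ID, and the annotation used for counting is not given in the sources used here. The deposited values are FPKM, 1 per gene and library. Multiplied by the gene span (introns included) and 1 total per library, 100% of the values above 0 gave whole reads (tolerance 0.001), 11074998 to 14515300 per library. Summed over genes, the reads were 7.38% to 8.34% above these totals, which means that some count for more than 1 gene, and strand was not used in counting. Identifiers and exon lengths came from GENCODE M21, which matched 53297 of the listed genes (96.5%) and 34 of the 35 imprinted genes by position and symbol (not Rian).

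The deposited values are FPKM and not counts, and voom on the recovered whole reads was run as an alternative. Changes were tested with limma 3.58.1 (R 4.3.3, lmFit, eBayes with trend, two-sided) on log2(RPM + 0.1), RPM being reads per 1000000 of the library, for genes whose mean reached 10 recovered reads, with Benjamini-Hochberg adjustment over all genes tested. Every adjusted p in the text is from limma. Multiplying by the span keeps long genes above the minimum and leaves ratios within a gene as they are, and changes of genes with few reads are understated by the pseudocount. Genes were called at an adjusted p under 0.05 and an absolute log2 change above 0.58. An exact permutation test of 3 against 3 cannot go below 0.1 and was not used. The labels do not say that replicates are separate cultures, so p-values measure only the spread between these libraries, which may be technical. Reads carry no molecular identifiers, and limits for 0 reads (3 reads) cover counting error only.

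The members, gene lists and tests were chosen with earlier results of these data known. All 35 imprinted genes may be named, and, of the further lists, genes called in at least 1 knockdown comparison, genes that share reads with a member, and Smarcb1. Fap, Ttr, Prl3d1 and Tpbpa are outside that rule and were named for their 0 reads in 240 h kd. Zfp57, Trim28 and Dnmt1 were named after their values were seen. The alternatives are those named in the closing section. The test was run first on simulated data. Promoter windows are from RefSeq (GRCm38.p6). Tables and plots were made in Python 3.11.15 (pandas 2.3.3, numpy 2.4.6, matplotlib 3.10.9).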

Additional observations from a re-analysis of the deposited data

Results flagged for a closer look

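For 11 imprinted genes the effect of the knockdown at 240 h differed from that at 48 h by the interaction term of limma (adjusted p under 0.05 and a difference above 0.58). The difference of the effects on the log2 scale, 240 h minus 48 h, was 2.43 for Peg12, 2.40 for H19, 1.53 for Peg10, 1.45 for Dlk1 and 1.41 for Igf2. It was 1.06 for Magel2, 0.97 for Sgce, 0.92 for Ndn and 0.75 for Snrpn. It was negative for Slc22a18, at -2.5, and for Meg3, at -0.76. The size for Slc22a18 depends on the pseudocount, with 6, 3 and 1 reads in 240 h kd, and it reached the minimum of reads through the other groups. H19 fell at 48 h and rose at 240 h, and is the only one of the 11 called in opposite directions at these times. Igf2 and Sgce rose at both times and more at 240 h. The difference for Meg3 was not called without 48 h ctrl replicate 2 (-0.69) or 3 (-0.75), 48 h kd replicate 2 (-0.51) or 3 (-0.80), 240 h ctrl replicate 1 (-0.61) or 2 (-0.77), or 240 h kd replicate 2 (-0.68) or 3 (-0.79), and that for Magel2 not without 240 h kd replicate 1 (0.91).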

How the results depend on the processing

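Of the 43 calls of imprinted genes in the 3 knockdown comparisons, 32 were kept under every alternative that tested the gene and 8 were lost when 1 library was left out. The number called was 14, 17 and 12 at 48 h, 72 h and 240 h, 2 between the untreated groups, 11 from 48 h kd to 72 h kd, 19 from 72 h kd to 240 h kd and 11 for the interaction, and with each library left out in turn it ranged from 9 to 14, 16 to 17, 11 to 13, 0 to 2, 10 to 12, 17 to 19 and 10 to 12. On log2(FPKM + 0.1) with a minimum of 0.5 FPKM, which leaves 22 to 24 of these genes, it was 6, 8, 6, 0, 6, 9 and 7 in the same order. Over all genes that setting called 456, 1548, 1016, 54, 857, 1803 and 664, against 1486, 3597, 2946, 221, 2074, 4150 and 1727. A minimum mean of 50 reads called 876, 2232, 1663, 107, 1206 and 2528 genes in the first 6. By adjusted p alone, 28 imprinted genes passed at 72 h, 24 at 240 h, 10 between the untreated groups and 22 from 48 h kd to 72 h kd, and 4204, 10002, 7516, 2062, 6901, 10761 and 3345 of all genes. Between the untreated groups the count was also 0 with a pseudocount of 1, 1 without a minimum, 1 with a minimum mean of 50 reads and 0 without the trend (118, 107 and 0 of all genes with the pseudocount of 1, the higher minimum and no trend). The cause was not tested. Pseudocounts of 1 and 0.01, voom on the recovered reads, centring on the median, quantile normalization and 1 fit of all 15 libraries left the other counts within 1.5 times.

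The replicate numbers were not found to pair the libraries (correlations of the deviations of same-numbered libraries between -0.21 and 0.18). With the replicate number as a block the counts of imprinted genes were 13, 17, 12, 2, 11, 19 and 11 (333 of all genes between the untreated groups). Dlk1 at 72 h reversed against 240 h ctrl, to 0.12 with an adjusted p of 0.80. Depth limits Dlk1, Slc22a18, Ascl2 and Rtl1, with at most 49 reads in a library.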
